A study of Rattus norvegicus with 6 samples.

Results

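Apoe, Clu, Abca1 and Lpl make and handle the lipid particles of the brain, and their messenger RNA was described in 6 RNA sequencing libraries of cultured rat cells. They were chosen by name and function, with earlier results of these data known. They are 4 of the 26405 genes in the deposited table: Apoe (ENSRNOG00000018454), Clu (ENSRNOG00000016460), Abca1 (ENSRNOG00000018126) and Lpl (ENSRNOG00000012181). All 4 passed the filter on low counts, as did 18206 genes in all. There were 2 libraries each of astrocytes, the support cells of the brain, of neurons, and of oligodendrocyte precursor cells (OPCs), which divide and give rise to myelin-forming cells. The 3 cell types were separate commercial rat cell products with no treatment or genetic change named in the labels. Astrocytes and OPCs were passaged 1 time, with 8 days in culture before and 6 days after it, and neurons were kept 7 days without passage. Cell type, product and, for neurons, time in culture and passage cannot be told apart, and the labels used here name neither strain nor animal age. The series title sets these cultures within a comparison of neural cells across species and between culture and tissue.

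Lipoprotein particles of the blood plasma hardly cross the blood-brain barrier, so the brain builds its own, and astrocytes are known as their main makers. Abca1 is a membrane pump that passes cholesterol and phospholipid from the cell to a lipid-poor apolipoprotein. Apoe and Clu (also called apolipoprotein J) are the secreted proteins that carry the lipid and deliver it to receptors on other cells. Lpl, lipoprotein lipase, acts at the receiving end, where it cuts triglyceride in such particles into fatty acids. Transcription of Abca1 and Apoe is known to be raised by the liver X receptors, nuclear receptors that sense oxidised cholesterol.

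The starts of Abca1 and Apoe are shown as those of the members that differed together between the neuron replicates, as described below, for which the table of promoters held an entry. Each window runs from 250 bases before to 50 bases after an annotated start, was taken from RefSeq (build GRCr8, minus strand in both) by gene symbol, and is written 5′ to 3′. Of the 4 genes, 2 were matched, and Clu and Lpl were not. Capitals mark matches on either strand to 4 motifs. The TATA box was searched as TATAA, where the general transcription machinery is known to bind. The GC box, a site of Sp family factors, was searched as GGGCGG. The E-box of basic helix-loop-helix factors was searched as CACGTG. The direct repeat known to be bound by liver X receptors was searched in the loose form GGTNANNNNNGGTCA. No marked match overlaps another.
Abca1, chr5:72596424-72596723: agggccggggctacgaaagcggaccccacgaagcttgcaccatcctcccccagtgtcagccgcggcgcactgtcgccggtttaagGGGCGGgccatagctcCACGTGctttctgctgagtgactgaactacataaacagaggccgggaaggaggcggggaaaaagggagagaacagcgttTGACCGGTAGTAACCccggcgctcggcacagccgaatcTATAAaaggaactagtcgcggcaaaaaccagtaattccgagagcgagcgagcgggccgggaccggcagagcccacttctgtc
Apoe, second of 3 starts, chr1:88484650-88484949: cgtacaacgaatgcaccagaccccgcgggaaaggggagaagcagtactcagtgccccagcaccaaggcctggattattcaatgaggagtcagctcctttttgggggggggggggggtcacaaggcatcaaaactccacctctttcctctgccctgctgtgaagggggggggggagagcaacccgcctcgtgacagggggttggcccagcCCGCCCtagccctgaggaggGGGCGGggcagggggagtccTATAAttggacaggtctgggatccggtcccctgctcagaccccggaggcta

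The Abca1 window held all 4 motifs, with the direct repeat TGACCGGTAGTAACC beginning 70 bases before the start on the opposite strand. A match to that repeat was found in 0.23% of the 33469 windows of this length in the table, to the E-box in 6.42%, to the TATA box in 26.2% and to the GC box in 33.1%. The Apoe window shown held 2 matches to the GC box, and 17% of windows held at least that many. Its match to TATAA begins 1 base before this annotated start and so spans it. All 3 matches also lie in the overlapping window of the third start, and the window of the first start held none of the 4 motifs. The second Apoe start was chosen for printing after its matches were seen. A match describes letters in a window and shows neither binding nor a cause.

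Levels are given as CPM, the count relative to library size after scaling each library by its TMM factor. The n is 2 libraries per cell type, except where a library was left out, which leaves a single library of that cell type. Total counts ran from 22265917 to 102861667 per library. The members had between 45 and 102881 counts in a library, so counting error was small beside the spread between replicates. CPM does not correct for transcript length, and levels are therefore compared between libraries and not between genes. No other identifier could be paired with a symbol, so the labelled cell types were not checked against marker genes here. In bulk RNA a smaller number of cells of a type cannot be told apart from less RNA per cell.

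The neuron libraries stood apart from each other in these genes. Apoe, Clu and Abca1 were each far higher in neuron replicate 1 than in neuron replicate 2. The comparisons of each gene that involve neurons are therefore given with all libraries and without each neuron library. A fit without a neuron library rests on a single neuron library. Its p-values assume that neurons vary as the other cell types do.

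**Figure D1:**
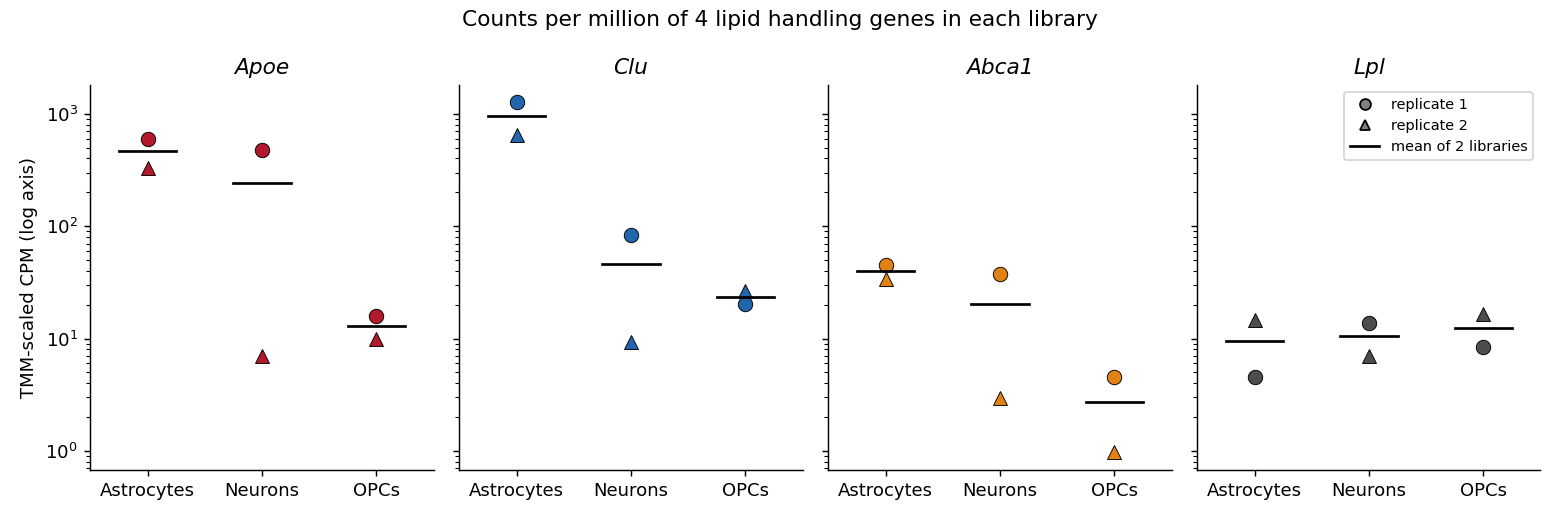
Each panel shows 1 gene, with TMM-scaled CPM on a log axis against cell type; circles are replicate 1, triangles replicate 2 and lines the mean of the 2 libraries. Neuron replicate 1 lies within the astrocyte range for Apoe (474 CPM) and Abca1 (37.7 CPM), while neuron replicate 2 lies within or below the OPC range for Apoe, Clu and Abca1.

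Apoe, the main apolipoprotein made in the brain, was at 597 and 327 CPM in the astrocyte libraries, 474 and 7.04 in the neuron libraries, and 16.0 and 9.92 in the OPC libraries (replicate 1 first). The astrocyte libraries and neuron replicate 1 were high, and neuron replicate 2 was below both OPC libraries. In neuron replicate 1, 165 of the 18206 genes had a higher CPM than Apoe, against 10716 in neuron replicate 2. The means were 462 ± 191 CPM in astrocytes (SD), 240.4 ± 330.1 in neurons and 12.9 ± 4.28 in OPCs.

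Both OPC libraries lay below both astrocyte libraries for Apoe, a log2 fold change of -5.16 ± 1.63 (SE) or 35.8-fold less. With all 6 libraries this did not pass the edgeR test (adjusted p = 0.0584, 95% interval -9.02 to -1.30). Intervals here are for single genes and, unlike the adjusted p, take no account of the number of genes tested. In a fit of only the 4 astrocyte and OPC libraries the same log2 fold change, -5.16, had an adjusted p of 0.000528. Leaving out neuron replicate 1 gave 0.000534, and leaving out neuron replicate 2 gave 0.000598. DESeq2 on all 6 libraries also called it (adjusted p = 0.0116). Other settings did not pass. With all 6 libraries the edgeR adjusted p was 0.298 with no filter on low counts and 0.0626 to 0.0717 under other scalings. By limma-voom the adjusted p was 0.11. Leaving out a single astrocyte or OPC library gave log2 fold changes from -5.54 to -4.55, none of which passed. The fit of 6 libraries shares a single estimate of spread among cell types, and it includes the 67.3-fold difference between the neuron replicates.

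The Apoe difference between neurons and astrocytes was -0.94 ± 1.38 on the log2 scale (edgeR adjusted p = 0.639, 95% interval -4.20 to 2.31), and the libraries overlapped. Without neuron replicate 1 it was -6.04 and passed the test (adjusted p = 0.00135). Without neuron replicate 2 it was 0.04 (adjusted p = 0.967). By limma-voom on all 6 libraries, which averages log values, it was -3.02 (adjusted p = 0.231). Against OPCs the neuron value was 4.22 ± 1.56 (adjusted p = 0.129), which became 5.20 without neuron replicate 2 (adjusted p = 0.00338) and -0.88 without neuron replicate 1 (adjusted p = 0.334), and was 2.14 by limma-voom (adjusted p = 0.512). In the order astrocytes, neurons, OPCs, no neighbours passed the edgeR test in Apoe with all libraries. The single-gene 95% interval for neurons against OPCs, 0.53 to 7.91, left out 0.

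Clu, a secreted chaperone and apolipoprotein, was at 1261 and 642 CPM in the astrocyte libraries, 82.8 and 9.22 in the neuron libraries, and 20.3 and 26.7 in the OPC libraries. Astrocytes were high in both libraries with no overlap with any other library, and the OPC values lay between those of the neuron replicates. In astrocyte replicate 1, 102 genes had a higher CPM. The means were 952 ± 437 CPM in astrocytes, 46.0 ± 52.0 in neurons and 23.5 ± 4.54 in OPCs.

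Clu was lower in neurons than in astrocytes by 20.7-fold, which is -4.37 ± 1.02 on the log2 scale (edgeR estimate and SE, adjusted p = 0.0175). The value was -6.69 without neuron replicate 1 (adjusted p = 0.00109) and -3.52 without neuron replicate 2 (adjusted p = 0.00729). It lost its call without astrocyte replicate 1 (-3.71, adjusted p = 0.0794) and with no filter on low counts (-4.38, adjusted p = 0.0626).

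Clu was also lower in OPCs than in astrocytes, by 40.4-fold, which is -5.34 ± 1.07 on the log2 scale (edgeR estimate and SE, adjusted p = 0.0116). The call was lost without astrocyte replicate 1 (-4.66, adjusted p = 0.0537), without OPC replicate 1 (-5.15, adjusted p = 0.09) and without OPC replicate 2 (-5.49, adjusted p = 0.0809). Neurons and OPCs, neighbours in the order of Clu levels, were not told apart (0.97 ± 0.90, adjusted p = 0.527, 95% interval -1.15 to 3.08). Without neuron replicate 1 that value was -1.35 (adjusted p = 0.158), and without neuron replicate 2 it was 1.82 (adjusted p = 0.0597).

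Abca1, the pump that loads the particles, was at 45.0 and 33.9 CPM in the astrocyte libraries, 37.7 and 2.98 in the neuron libraries, and 4.50 and 0.974 in the OPC libraries. As with Apoe, neuron replicate 1 lay between the astrocyte libraries. Neuron replicate 2 lay between the OPC libraries, where for Apoe it was below both. The lowest value rested on 45 counts, with an exact 95% Poisson interval of 0.711 to 1.30 CPM that covers counting error only. The means were 39.5 ± 7.87 CPM in astrocytes, 20.3 ± 24.5 in neurons and 2.74 ± 2.49 in OPCs.

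Both OPC libraries lay below both astrocyte libraries for Abca1, at a log2 fold change of -3.87 ± 1.22 (SE), or 14.6-fold less, with an edgeR adjusted p of 0.0572. The 4 astrocyte and OPC libraries alone gave -3.88 with an adjusted p of 0.0067, and DESeq2 on all 6 libraries gave -3.80 with an adjusted p of 0.00135. Leaving out a single astrocyte or OPC library gave log2 fold changes of Abca1 from -5.34 to -3.06, none of which passed. With all 6 libraries the edgeR adjusted p was 0.258 with no filter and 0.0632 to 0.0868 under other scalings. By limma-voom the adjusted p was 0.0644. With neuron replicate 1 left out the edgeR adjusted p was 0.00729, and with neuron replicate 2 left out it was 0.00712.

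Neurons and astrocytes were not told apart in Abca1 with all libraries (-0.96 ± 1.08, edgeR adjusted p = 0.535, 95% interval -3.51 to 1.60), and limma-voom gave -1.71 (adjusted p = 0.228). Without neuron replicate 1 the value was -3.73 and passed (adjusted p = 0.0246), and without neuron replicate 2 it was -0.07 (adjusted p = 0.957). Against OPCs the neuron value was 2.91 ± 1.17 (edgeR adjusted p = 0.156, 95% interval 0.15 to 5.68). It was 3.81 without neuron replicate 2, which passed (adjusted p = 0.0247), and 0.15 without neuron replicate 1 (adjusted p = 0.929). DESeq2 called this difference with all libraries (2.94, adjusted p = 0.0257).

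Lpl, the lipase, was at 4.55 and 14.5 CPM in the astrocyte libraries, 13.9 and 7.04 in the neuron libraries, and 8.43 and 16.4 in the OPC libraries. All 3 cell types overlapped, and the widest gap between replicates, 3.19-fold, was within astrocytes. The means were 9.51 ± 7.03 CPM in astrocytes, 10.5 ± 4.83 in neurons and 12.4 ± 5.66 in OPCs.

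Lpl passed no test in any pair of cell types. The log2 fold change was 0.14 ± 0.65 for neurons against astrocytes (edgeR adjusted p = 0.894, 95% interval -1.40 to 1.68) and 0.39 ± 0.65 for OPCs against astrocytes (adjusted p = 0.732, 95% interval -1.15 to 1.93). For neurons against OPCs it was -0.25 ± 0.65 (adjusted p = 0.84, 95% interval -1.79 to 1.29). These intervals leave room for differences of more than 2-fold either way, so equal levels of Lpl were not shown. Without neuron replicate 1 the neuron values of Lpl were -0.43 against astrocytes (adjusted p = 0.694) and -0.82 against OPCs (adjusted p = 0.53). Without neuron replicate 2 they were 0.55 (adjusted p = 0.614) and 0.16 (adjusted p = 0.915). The sign of each Lpl difference turned when single libraries were left out.

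**Figure D2:**
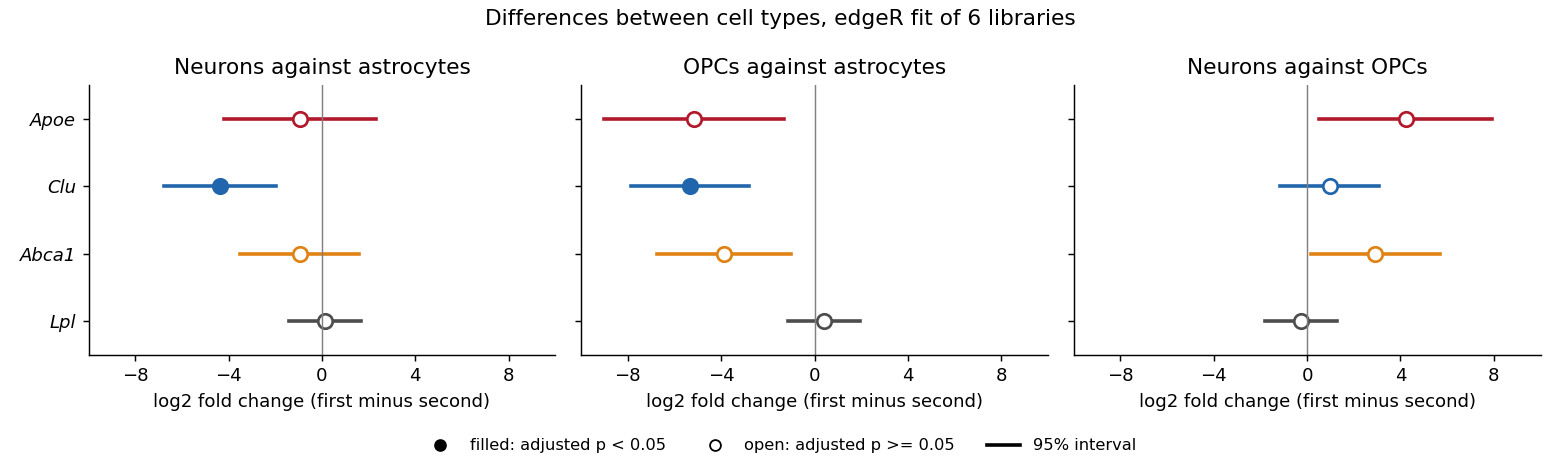
Each panel is a pair of cell types; points are edgeR log2 fold changes (first named minus second) of the 4 genes, lines their 95% intervals, and filled points passed an adjusted p of 0.05. Clu is the filled point in both comparisons with astrocytes, and the Lpl intervals are the shortest and span 0 in each panel.

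Read together, 1 of the 4 genes, Clu, was called between neurons and astrocytes, where 30.4% of all genes tested were called and 15.9% were lower in neurons. The same gene was the 1 call between OPCs and astrocytes, where 25.5% of all genes were called and 14.9% were lower in OPCs. Between neurons and OPCs edgeR called 0 of the 4, against 12.4% of all genes. There 2 of the 4 had an unadjusted p under 0.05, beside 28.6% of all genes. DESeq2 called 1 (Abca1), beside 22.1%, and limma-voom 0, beside 11.8%. Between OPCs and astrocytes 3 of the 4 had an unadjusted p under 0.05 (36.7% of all genes), and DESeq2 called 3 (32.7%).

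The counts moved with single libraries. Between neurons and astrocytes Apoe, Clu and Abca1 were called without neuron replicate 1 (32.9% of all genes), and 0 of the 4 without astrocyte replicate 1 (18.2%). Between OPCs and astrocytes the same 3 genes were called without neuron replicate 1 (32% of all genes) and without neuron replicate 2 (31.9%). That comparison had 0 of the 4 called without astrocyte replicate 1 (14.5%), OPC replicate 1 (12.5%) or OPC replicate 2 (12%). Between neurons and OPCs Apoe and Abca1 were called without neuron replicate 2 (13.1%).

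The libraries of both groups did not overlap for 1 member between neurons and astrocytes (68.8% of all genes), for 3 between OPCs and astrocytes (65.5%) and for 0 between neurons and OPCs (57.1%). With 4 members, none of these counts stood clearly above the share of all genes. The median log2 fold change of the 4 members was -4.51 for OPCs against astrocytes, beside -0.04 over all genes. It was -0.95 for neurons against astrocytes, beside -0.06, and 1.94 for neurons against OPCs, beside 0.05. Libraries recur among the 3 comparisons, and the list as a whole was not tested.

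The split between the neuron replicates was among the widest of the table for Apoe. Its ratio of replicate 1 to replicate 2 was 67.3, or 6.07 on the log2 CPM scale (prior count 2), and 18 of the 18206 genes had a higher ratio. Abca1 was 12.7-fold higher in neuron replicate 1, with 224 genes at a higher ratio, and Clu 8.98-fold, with 378 genes. Lpl was 1.97-fold higher in replicate 1, a ratio exceeded by 3467 genes. Over all genes the median neuron log2 ratio was 0.05, with an SD of 1.15. The SD was 0.79 between astrocyte replicates and 0.77 between OPC replicates, so the neuron replicates also differed more over all genes.

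The other replicate pairs were closer for Apoe, Clu and Abca1. Between astrocyte replicates, Apoe was 1.82-fold, Clu 1.96-fold and Abca1 1.33-fold higher in replicate 1. Between OPC replicates, Abca1 was 4.62-fold higher in replicate 1, with 120 genes at a higher ratio, and Apoe 1.61-fold. Counted in either direction, 1.64% of genes had a wider gap than Abca1 between OPC replicates, and 1.44% between neuron replicates. Clu was 1.32-fold and Lpl 1.95-fold higher in OPC replicate 2. Lpl went the other way, with a wider gap between astrocyte replicates (3.19-fold higher in replicate 2) than between neuron replicates. Whether replicates were separate cultures is not given in the labels.

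**Figure D3:**
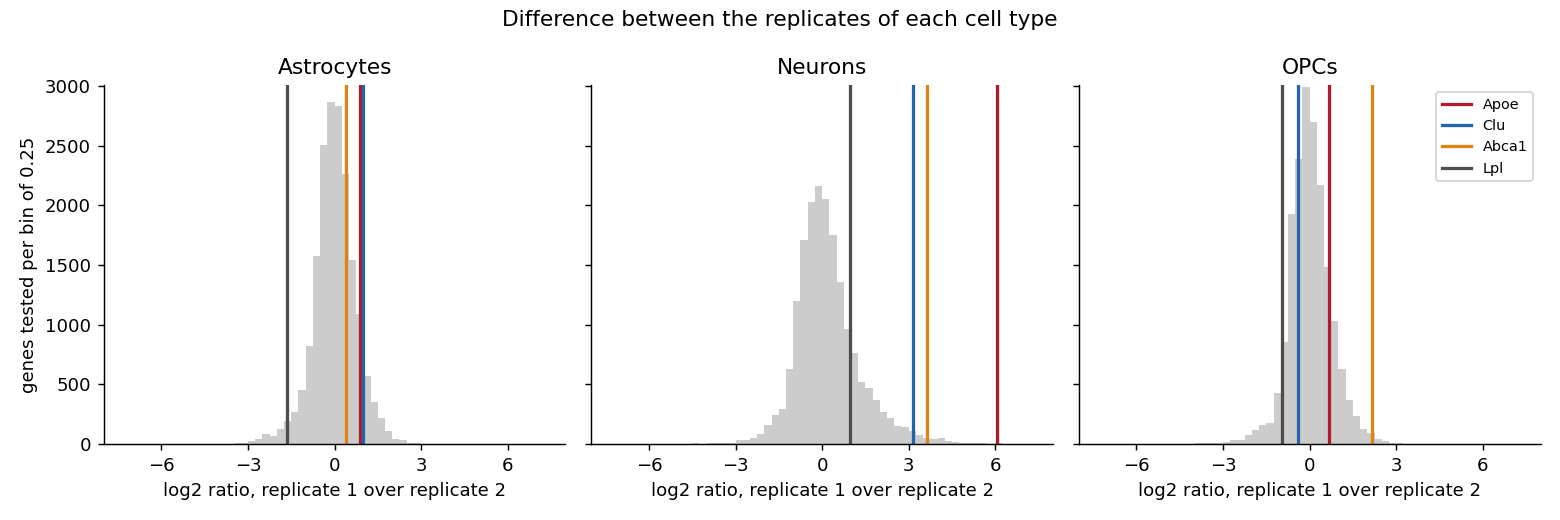
Grey bars count all 18206 genes tested by their log2 CPM ratio of replicate 1 to replicate 2 (bins of 0.25), 1 panel per cell type, and vertical lines mark the 4 genes. In neurons Apoe (6.07), Abca1 (3.65) and Clu (3.16) lie in the right tail, and in OPCs Abca1 does (2.17).

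Apoe and Abca1 shared a pattern across the libraries. Both astrocyte libraries were above both OPC libraries, neuron replicate 1 fell within the astrocyte range, and neuron replicate 2 was not above the higher OPC library. Of all genes tested, 138 (0.758%) had this pattern, which was defined after the values were seen. Clu did not share it, because its level in neuron replicate 1, 82.8 CPM, lay below the lower astrocyte library at 642 CPM.

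The proportion of Apoe to Clu set neuron replicate 1 apart from every other library. Its ratio of Apoe counts to Clu counts was 5.72, against 0.473 and 0.51 in astrocytes, 0.764 in neuron replicate 2, and 0.786 and 0.371 in OPCs. The lengths of the genes cancel when this ratio is compared between libraries. The ratio of Apoe to Abca1 counts was 12.6 in neuron replicate 1 and 2.37 in neuron replicate 2. It was 13.3 and 9.65 in astrocytes and 3.55 and 10.2 in OPCs. Neuron replicate 1 and OPC replicate 2 both lay between the astrocyte libraries in this ratio. Clu to Abca1 stood at 2.20 and 3.10 in the neuron libraries, 28.0 and 18.9 in the astrocyte libraries, and 4.51 and 27.4 in the OPC libraries.

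Levels of genes high in the astrocyte cultures are given beside this split. Apart from the members, 1834 genes were called more than 8-fold higher in astrocytes than in OPCs in a fit without the neuron libraries. They took 2.49% of the counts in neuron replicate 1 (95% Wilson interval 2.484 to 2.491) and 2.16% in neuron replicate 2 (2.153 to 2.161). These intervals cover counting error only. The shares are of total counts without the TMM factors, which were 1.21 and 1.042 in neuron replicates 1 and 2. Divided by these factors, the share in neuron replicate 1 would not exceed that in neuron replicate 2. The same genes took 24.6% and 18.4% in the astrocyte libraries and 0.808% and 0.806% in the OPC libraries. The genes were chosen on those libraries, so the difference between astrocytes and OPCs was set by the choice. Of these genes, 70.4% were higher in neuron replicate 1 than in replicate 2, against 52.2% of all genes, with a median log2 ratio of 0.83. Their part in the Apoe, Clu and Abca1 levels was not tested, nor was that of any other cell type in the culture.

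**Figure D4:**
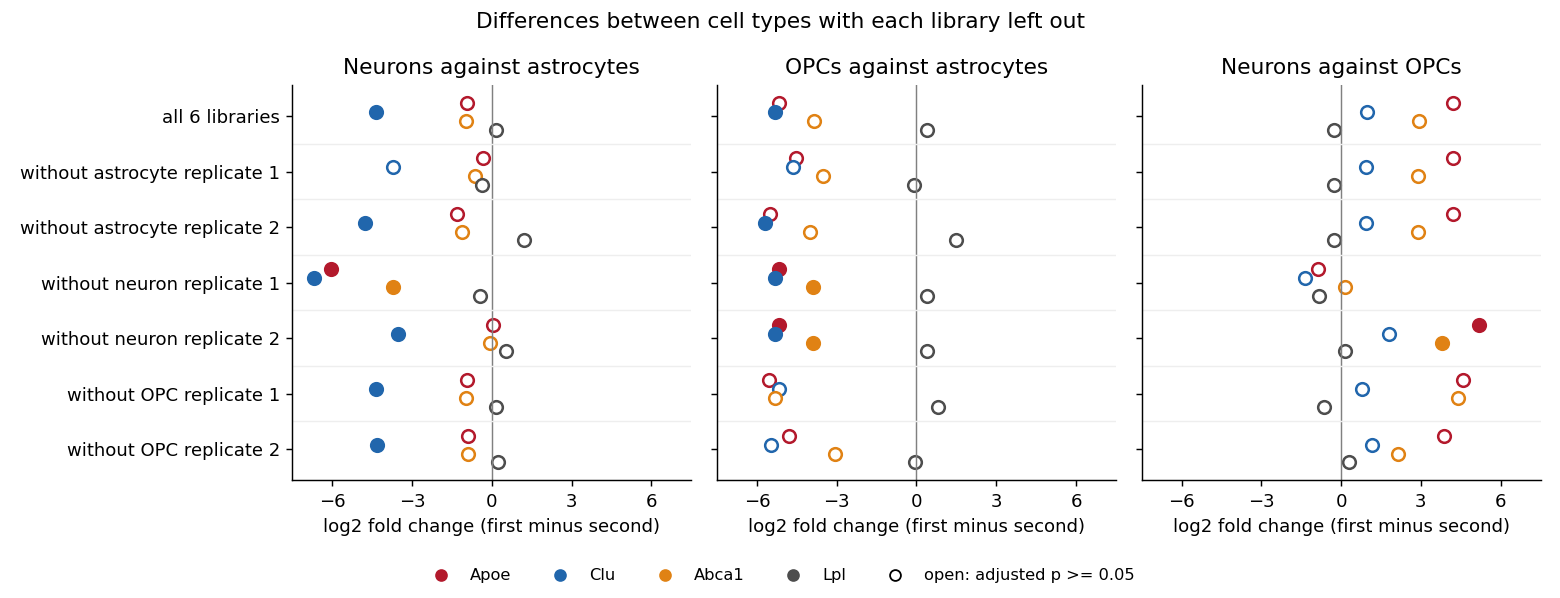
Rows are the fit of all 6 libraries and the 6 fits that leave out 1 library; points are log2 fold changes of the 4 genes (colours) in each pair of cell types, filled where the edgeR adjusted p was under 0.05. Leaving out neuron replicate 1 moves Apoe from -0.94 to -6.04 against astrocytes and from 4.22 to -0.88 against OPCs.

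Likeness was measured as the root mean square difference of log2 CPM over the 6 libraries, each gene centred on its own mean. Among the members Apoe and Abca1 were the closest pair, at 0.955, followed by Apoe and Clu at 1.31 and Clu and Abca1 at 1.52. Lpl was 2.35 to 2.88 from the others. Of the genes with a mean of at least 50 CPM in some cell type, the nearest to Apoe was ENSRNOG00000028841 at 0.637, with 87.3 and 189 CPM in astrocytes, 94.0 and 2.11 in neurons, and 3.42 and 1.86 in OPCs. That gene was also high in neuron replicate 1 and low in neuron replicate 2. The nearest to Clu was ENSRNOG00000014117 at 0.317, to Abca1 ENSRNOG00000018835 at 0.327 and to Lpl ENSRNOG00000019682 at 0.344, none of which could be paired with a symbol here.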

How the data were processed

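The deposited table holds raw counts per Ensembl rat gene, 1 column per library, with totals that differ. Per the labels' protocols, RNA was extracted on columns and 250 ng went to Illumina sequencing. The sources used here do not name the aligner, counter, build, annotation or use of strand. Columns were matched by the labels' description, and 0 were left out. No 2 libraries were identical. Because the labels name no separate cultures, p-values reflect the spread of these libraries alone, which may be technical.

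Genes were filtered with filterByExpr (minimum count 10, total 15) and scaled by TMM in edgeR 4.0.16 (R 4.3.3). All 6 libraries entered a robust quasi-likelihood fit with cell type as the only factor (3 residual degrees of freedom). P-values were adjusted by Benjamini-Hochberg over all 18206 genes, threshold 0.05. Standard errors were the log2 fold change divided by the root of F. The edgeR steps were run on simulated data, where all but a small set of genes had the same mean in all cell types. This setting is simpler than the real data, and its outcome is not used here. Alternatives were other scalings, DESeq2 1.42.0, limma-voom (limma 3.58.1), no filter, fits of 4 libraries, a replicate block and leaving out each library.

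All 4 members were named whatever their values, with the nearest gene to each. The members and lists were chosen with earlier results of these data known. Lists of other lipid genes and cell type markers were not run, since the gene table (GRCr8) paired 0 identifiers with symbols.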

Additional observations from a re-analysis of the deposited data

How the results depend on the processing

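Of 168 member values under alternatives, 140 kept direction and side of the threshold, 14 gained a call, 5 lost it and 9 turned sign, each turn with a library left out. With total counts alone, the median over all genes shifted to 0.40 from -0.06 for neurons against astrocytes and to 0.39 from -0.04 for OPCs against astrocytes, and no member turned sign. The calls gained were of Apoe and Abca1, most of them with a single neuron library left out. For OPCs against astrocytes the others were Apoe (-5.11 by DESeq2, -5.16 with 4 libraries) and Abca1 (-3.80 by DESeq2, -3.88 with 4 libraries, -4.44 with the replicate block). For neurons against OPCs the other was Abca1 (2.94 by DESeq2). Clu in neurons against astrocytes lost its call with no filter (-4.38), where 24873 genes were tested. The other calls lost, also of Clu, came with astrocyte replicate 1, OPC replicate 1 or OPC replicate 2 left out. DESeq2 called 4031 genes between neurons and OPCs, edgeR 2260.

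The next ranges leave out each library in turn, and assume that the lone library varies as the other groups do. For neurons against astrocytes they were Apoe -6.04 to 0.036, Clu -6.69 to -3.52, Abca1 -3.73 to -0.068 and Lpl -0.43 to 1.22, with 3306 to 5996 genes called. For OPCs against astrocytes they were Apoe -5.54 to -4.55, Clu -5.71 to -4.66, Abca1 -5.34 to -3.06 and Lpl -0.10 to 1.49, with 2182 to 5831 genes. For neurons against OPCs they were Apoe -0.88 to 5.20, Clu -1.35 to 1.82, Abca1 0.15 to 4.38 and Lpl -0.82 to 0.29, with 116 to 2759 genes. For neurons against astrocytes, 3306 came without astrocyte replicate 1 and 3486 without astrocyte replicate 2. For OPCs against astrocytes, omitting astrocyte replicate 1 gave 2645, OPC replicate 1 2276 and OPC replicate 2 2182. For neurons against OPCs, omitting OPC replicate 1 gave 225 and OPC replicate 2 116. Lpl turned sign without astrocyte replicate 1 (-0.37 and -0.10), neuron replicate 1 (-0.43), neuron replicate 2 (0.16) and OPC replicate 2 (-0.07 and 0.29). The cause of these changes was not tested.

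The replicate block, in which same-numbered libraries are paired, changed no member call besides that of Abca1, and moved the neuron value of Apoe to -2.02 (against astrocytes) and 3.09 (against OPCs). The deviations of same-numbered libraries correlated at 0.147 to 0.292 across genes, and no label says what a number marks.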
